A study of Mus musculus with 3 samples.

Results

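Acetylated chromatin that lies close to H3K4me3 without carrying it was described in mouse leukaemia cells. A total of 5023 peaks of H3K27ac, histone H3 acetylated at lysine 27, were selected from the 29468 peaks of that mark (17.0%, exact 95% binomial interval 16.6 to 17.5%). Each shared no base with any of the 18142 peaks of H3K4me3, histone H3 trimethylated at lysine 4, was separated from the nearest of them by at most 10000 bp, and had a peak score below 3100. They are called flanking peaks here. They made up 35.7% of all H3K27ac peaks without H3K4me3 and covered 7.10 Mb, or 10.8% of the length of the H3K27ac list.

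The cells came from a cultured mouse leukaemia of precursor B cells (acute lymphoblastic leukaemia) driven by Bcr-Abl, the fusion of Bcr and Abl1 that encodes a constitutively active tyrosine kinase, and they received no stimulation or treatment. Chromatin was immunoprecipitated and sequenced (ChIP-seq), with an antibody to H3K27ac, an antibody to H3K4me3 and a control immunoglobulin (IgG), giving 1 library each. The sources used here do not say whether the line is a single clone. No replicate exists for any library, the sequencing depth is unknown, and no test between samples was possible. The percentages and medians below carry 95% intervals, which cover counting error only and take each peak as independent of the rest.

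H3K4me3 is deposited around the start sites of active genes and of genes poised for activity, and H3K27ac is found at active promoters and at active enhancers, the regulatory elements that act on promoters from a distance. H3K27ac without H3K4me3 is commonly read as a mark of enhancers, and many enhancers lie in the introns or just upstream of the gene they act on. Acetylation at a strongly active promoter can also spread along the neighbouring nucleosomes, where it may be called as a peak of its own. The H3K4me3 peaks stand in for promoters here. No annotation or sequence of mm9, the genome build of the peaks, was used, so start sites and genes were not assigned and the leukaemia's B-lineage identity was not checked against marker genes.

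The values that defined the flanking peaks were their score, their lack of overlap and their gap, so these are given as description. The score was assigned by the authors, and the sources used here do not define it. It was 155 at the median (interval 146 to 163), with quartiles of 75.2 and 435. Scores under 100 were held by 36.2% of flanking peaks and scores of 1000 or more by 11.2%. The median score of the whole list was 710, but that list includes the scores of 3100 or more that the rule left out of the flanking peaks. The score limit left out 218 peaks that met the other criteria and scored 3100 or more. These were wider than the flanking peaks, with a median of 4749 bp (interval 4493 to 5014 bp), and 6863 scores of the list were tied at exactly 3100.

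Flanking peaks were most frequent between 1 and 3 kb from H3K4me3. The median gap was 3861 bp (interval 3764 to 4002 bp), with quartiles of 1992 and 6551.5 bp. Per 1 kb of gap there were 547 peaks in the first kb, 717 in the second, 713 in the third, 521 in the fifth and 309 in the tenth. The decline went on without a step at the 10 kb limit, with 289 peaks between 10 and 11 kb and 173 between 19 and 20 kb. The limit therefore cuts a continuous distribution. Within the first kb the peaks were fewest next to H3K4me3, at 108 within 250 bp and 160 between 750 and 1000 bp.

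**Figure D1:**
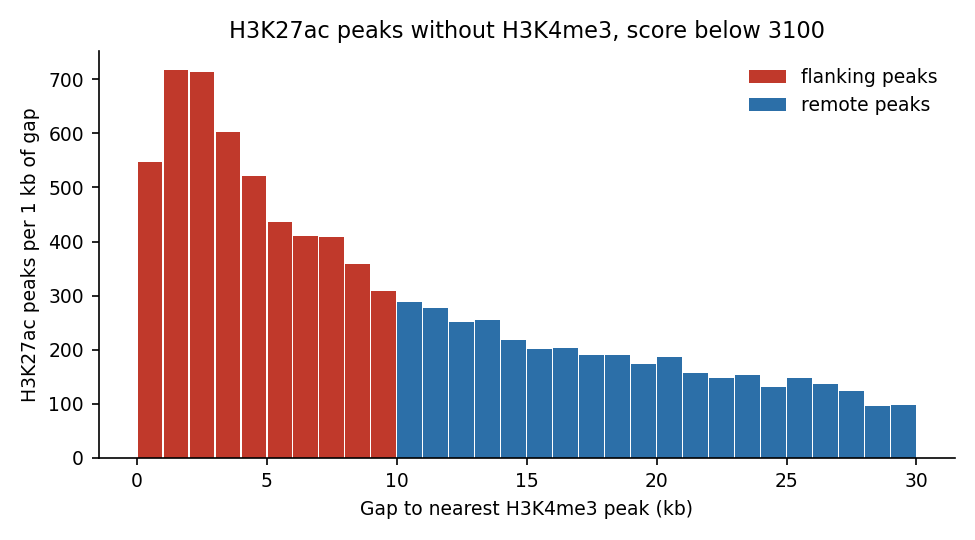
Number of H3K27ac peaks without H3K4me3 and with a score below 3100, per 1 kb of gap to the nearest H3K4me3 peak. Red bars are flanking peaks and blue bars remote peaks; the count is highest at 717 between 1 and 2 kb and is 309 just inside and 289 just outside the 10 kb limit.

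The peaks at both limits show how sharp the selection was. The flanking peak with the widest gap lay on chromosome 11 (54587610 to 54589099, mm9), 9999 bp from H3K4me3, measured 1490 bp and scored 343. The first peak beyond the limit lay on chromosome 6 (118077198 to 118078005), 10003 bp from H3K4me3, measured 808 bp and scored 99.3. The flanking peak with the highest score, 3080, lay on chromosome 7 (134223177 to 134227101). Most peaks left out for their score were tied at 3100. The first of these by chromosome and position lay on chromosome 1 (33648154 to 33654336), 8005 bp from H3K4me3. At the other end, a peak of 470 bp on chromosome 11 (97881003 to 97881472) was separated by 5 bp from an H3K4me3 peak of 3557 bp.

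Flanking peaks lay on either side of H3K4me3 in like numbers. Of the 5023, 49.8% (interval 48.4 to 51.2%) lay at higher coordinates than their nearest H3K4me3 peak. Without a direction of transcription, upstream and downstream cannot be told apart. In 723 cases (14.4%, interval 13.4 to 15.4%) H3K4me3 lay within 10 kb on both sides, so that the flanking peak sat in an interval between 2 H3K4me3 peaks that was 9993 bp long at the median. These enclosed peaks were 1165 bp wide at the median (interval 1078 to 1260 bp) and the 4300 others 1131 bp (interval 1097 to 1159 bp), a difference within the intervals. The median score was 157 for enclosed peaks and 155 for the others.

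The median width of the flanking peaks was 1135 bp (interval 1102 to 1164 bp), with quartiles of 734 and 1835 bp. The remote peaks, which are the 8384 H3K27ac peaks below the same score limit that lie over 10 kb from H3K4me3, measured 1235 bp (interval 1217 to 1257 bp). The 8955 H3K27ac peaks below the limit that overlap H3K4me3 measured 1681 bp (interval 1663 to 1700 bp). Median scores followed the same order, at 155 for flanking, 185 for remote and 992 for overlapping peaks. Scores and widths went together in each class, with Spearman rank correlations across peaks of 0.92, 0.91 and 0.78; peaks are not independent replicates, and both values come from the same library.

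Within classes of equal score, flanking peaks were close in width to remote peaks and wider than peaks that overlap H3K4me3. At scores of 200 to 500 the median width was 1565 bp (interval 1530 to 1599 bp) for flanking peaks, 1563 bp (interval 1536 to 1582 bp) for remote peaks and 1279 bp (interval 1253 to 1307 bp) for overlapping peaks. At scores of 1000 to 2000 the medians were 2671.5, 2748 and 1935 bp for flanking, remote and overlapping peaks. At scores of 2000 to 3100 they were 3355 bp (interval 3168 to 3552 bp), 3382 bp (interval 3223 to 3462 bp) and 2251 bp (interval 2223 to 2281 bp). The intervals of flanking and remote peaks overlapped in all 6 score classes, and those of flanking and overlapping peaks in none of them. At a given score, flanking peaks were thus as wide as remote peaks to within these intervals. The smaller overall median of the flanking peaks came with their larger share of scores under 100, 36.2% against 31.0% of remote peaks and 8.99% of overlapping peaks.

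**Figure D2:**
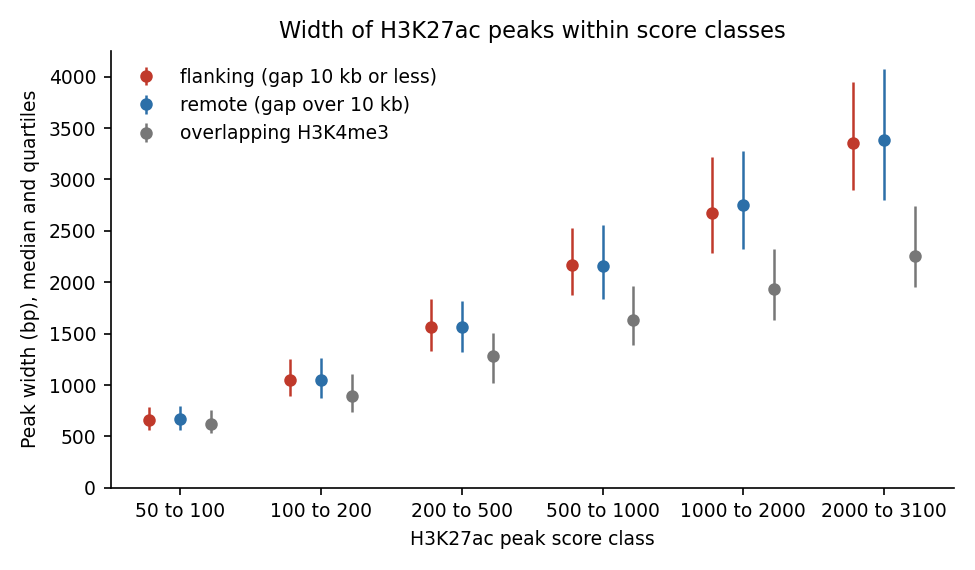
Width of H3K27ac peaks in bp by class of peak score, for flanking, remote and H3K4me3-overlapping peaks. Points are medians and bars reach from the first to the third quartile; flanking and remote peaks lie together in every class, and overlapping peaks are narrower, at 2251 bp against 3355 bp for flanking peaks in the highest class.

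Flanking peaks near to H3K4me3 were narrower and scored lower than those farther out. The 244 peaks with gaps of at most 500 bp were 882.5 bp wide at the median (interval 775 to 944 bp) and scored 98.0. The 717 peaks between 1 and 2 kb measured 1044 bp (interval 982 to 1103 bp) and scored 131. The 1922 peaks between 5 and 10 kb measured 1199 bp (interval 1149 to 1247 bp) and scored 174. Remote peaks at 20 to 50 kb measured 1232 bp (interval 1192 to 1269 bp), so the width of flanking peaks approached that of remote peaks within the first few kb. Over all flanking peaks the rank correlation of gap with width was 0.10, a weak one. Gap and score were used by the rule. A wide peak close to H3K4me3 is also more likely to touch it and be left out. The part of this selection in the smaller widths at short gaps was not tested.

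The 10 widest flanking peaks measured 6197 to 14549 bp. The widest lay on chromosome 4 (122523103 to 122537651), measured 14.5 kb, scored 2848 and lay 6504 bp from an H3K4me3 peak of 1401 bp with a score of 396.5. The second, 12.1 kb on the X chromosome (166434988 to 166447059), differed in that it scored only 138. The third, 9771 bp on chromosome 14 (26287442 to 26297212), scored 2708, and another H3K27ac peak ended 2 bp before it. A pair of H3K27ac peaks with a space of 285 bp between them, of 6424 and 6195 bp, stood on chromosome 6; the first of these (68879265 to 68885688) was ninth in width. Of the 10 widest, 9 had a nearest H3K4me3 peak that carried H3K27ac, close to the 96.3% of all flanking peaks. The exception, on chromosome 6 (87449006 to 87455202), measured 6197 bp, scored 1918 and was the only H3K27ac peak of its neighbourhood, with the next ones 50366 and 25102 bp away.

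The 10 highest-scoring flanking peaks scored 3018 to 3080 and measured 2730 to 4231 bp. After the peak on chromosome 7 given above came another on chromosome 7 (46918630 to 46921452, score 3075), one on chromosome 10 (58837633 to 58841863, score 3068) and one on chromosome 6 (128781615 to 128784894, score 3066). They lay 2295 to 8727 bp from H3K4me3. In 8 of the 10 the nearest H3K4me3 peak scored below 3100, and the lowest of these, 90.6, belonged to an H3K4me3 peak of 802 bp next to the flanking peak at 128599557 to 128603685 on chromosome 7. All 10 nearest H3K4me3 peaks carried H3K27ac, which at the 96.3% of all flanking peaks does not set them apart. Among all flanking peaks, 55.7% (interval 54.4 to 57.1%) had a nearest H3K4me3 peak below 3100.

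The H3K4me3 peaks next to flanking peaks carried H3K27ac more often than other H3K4me3 peaks. The 5023 flanking peaks shared 3676 nearest H3K4me3 peaks, which are 20.3% of the H3K4me3 list. Of these, 3521 (95.8%, interval 95.1 to 96.4%) overlapped H3K27ac, against 83.6% (interval 83.0 to 84.2%) of the 14466 others and 86.1% of the whole list. Counted per flanking peak, the nearest H3K4me3 peak carried H3K27ac in 4837 of 5023 cases (96.3%, interval 95.7 to 96.8%). Read the other way, 22.5% (interval 21.9 to 23.2%) of H3K4me3 peaks with H3K27ac were nearest to a flanking peak, against 6.14% (interval 5.23 to 7.15%) of the 2525 without it. H3K27ac peaks lie close together in general, and the part of this crowding in the difference was not tested.

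The same H3K4me3 peaks were somewhat less often among the highest-scoring ones. Scores of 3100 or more were held by 1674 of the 3676 (45.5%, interval 43.9 to 47.2%), against 51.5% of the other H3K4me3 peaks and 50.3% of the list. Their median score was 1837, whereas the median of the other H3K4me3 peaks was 3100. That contrast is larger than the one in shares, because a small majority of the others held scores of 3100 or more. Their median width was 1836.5 bp (interval 1781 to 1898 bp), against 1802 bp (interval 1781 to 1827 bp) for the others, a difference within the intervals.

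Among H3K4me3 peaks that carried H3K27ac, those with low H3K4me3 scores were nearest to a flanking peak more often than those with high scores. The share was 33.7% (interval 31.0 to 36.3%) at H3K4me3 scores of 50 to 100, 28.8% (interval 26.3 to 31.4%) at 100 to 200, 31.2% (interval 28.9 to 33.6%) at 200 to 500, 25.5% (interval 22.8 to 28.4%) at 500 to 1000, 24.6% (interval 21.8 to 27.4%) at 1000 to 2000, 20.9% (interval 17.9 to 24.3%) at 2000 to 3100 and 18.4% (interval 17.6 to 19.2%) at 3100 or more. The fall was not strict, since the second class lay below the third, with intervals that overlap. Over all H3K4me3 peaks, with or without H3K27ac, the share varied less, between 18.4 and 24.7%. In the lowest of these classes only 57.6% of H3K4me3 peaks carried H3K27ac, and in the highest 99.8% did. The score of a flanking peak and that of its nearest H3K4me3 peak had a rank correlation of 0.01 across the 5023 peaks. The rule kept flanking scores below 3100, and 2223 of these peaks stood beside H3K4me3 scoring 3100 or more. The value therefore cannot show the absence of a relation. Flanking peaks beside H3K4me3 scoring under 200 measured 1135.5 bp at the median, and those beside H3K4me3 scoring 3100 or more measured 1168 bp (intervals 1076 to 1200 bp and 1114 to 1218 bp).

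**Figure D3:**
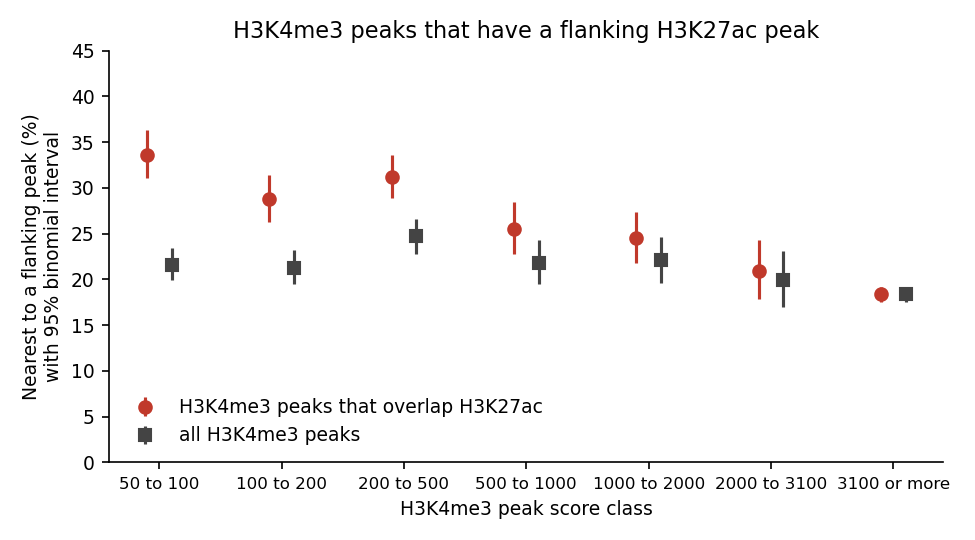
Percentage of H3K4me3 peaks that are the nearest H3K4me3 peak of at least 1 flanking H3K27ac peak, by H3K4me3 score class, with exact 95% binomial intervals. Red points are H3K4me3 peaks that overlap H3K27ac, at 33.7% in the lowest class and 18.4% at 3100 or more, with 28.8% at 100 to 200 below the 31.2% at 200 to 500; dark squares are all H3K4me3 peaks, between 18.4 and 24.7%.

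Acetylation on the H3K4me3 peaks themselves was broader where they were nearest to a flanking peak. This was measured on one-to-one pairs, in which an H3K4me3 peak and an H3K27ac peak overlapped each other and neither overlapped a further peak. Each flanking peak was counted only for its nearest H3K4me3 peak. Pairs and sides without one may thus still have lain within 10 kb of a flanking peak nearer to another H3K4me3 peak. They may also have lain near a peak left out for its score. In the 3109 pairs with a flanking peak the H3K27ac peak was 2905 bp wide at the median (interval 2844 to 2972 bp), against 2127 bp (interval 2107 to 2148 bp) in the 10802 pairs without. The H3K4me3 peak of the same pairs was slightly narrower, at 1939 bp (interval 1876 to 1990 bp) with a flanking peak and 2037 bp (interval 2015 to 2058 bp) without. H3K27ac was the wider mark in 74.4% (interval 72.8 to 75.9%) of pairs with a flanking peak and in 46.0% (interval 45.1 to 47.0%) of pairs without. The widths of H3K27ac on H3K4me3 were not used to choose the flanking peaks, but they come from the same library.

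The median width of the acetylated peak was higher with each further flanking peak, and that of H3K4me3 was not. With 0, 1, 2 and 3 or more flanking peaks, the H3K27ac peak of the pair measured 2127, 2772, 3160.5 and 3620 bp at the median. The H3K4me3 peak measured 2037, 1972, 1857.5 and 1782 bp over the same classes. These widths by number of flanking peaks were not split by score. The quartiles of the H3K27ac widths overlapped widely between neighbouring classes, so single pairs cannot be told apart by width.

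**Figure D4:**
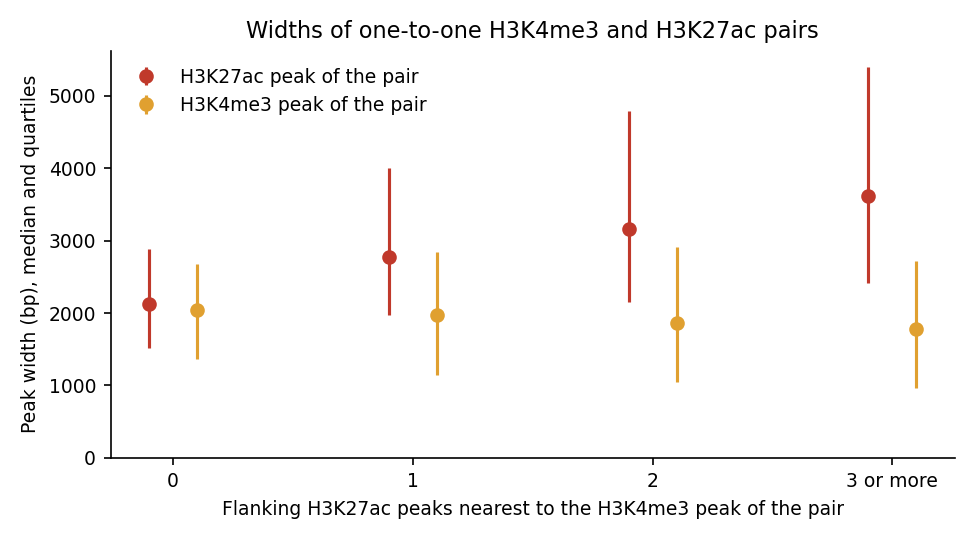
Widths in bp of the H3K27ac peak (red) and the H3K4me3 peak (yellow) of one-to-one pairs, by the number of flanking H3K27ac peaks nearest to the pair. Points are medians and bars reach from the first to the third quartile; the H3K27ac median is 2127 bp with 0 flanking peaks and 3620 bp with 3 or more, and the H3K4me3 median is 2037 bp and 1782 bp.

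The difference in H3K27ac width was also present both below and from a score of 3100 in either mark. Pairs were split only at 3100, so score was not held equal within these classes. Below 3100, H3K27ac peaks that overlap H3K4me3 measured 622 bp at scores of 50 to 100 and 2251 bp at 2000 to 3100, at the median. In pairs whose H3K27ac scored 3100 or more, the H3K27ac peak measured 3999.5 bp with a flanking peak and 2996.5 bp without (intervals 3883 to 4136 bp and 2966 to 3044 bp). In pairs whose H3K27ac scored below 3100 it measured 2021 bp with a flanking peak and 1676 bp without (intervals 1978 to 2059 bp and 1658 to 1697 bp). In pairs whose H3K4me3 scored below 3100, the H3K27ac peak measured 2748 bp with a flanking peak and 1630.5 bp without, while the H3K4me3 peaks measured 1130 bp with a flanking peak and 1120 bp without. In pairs whose H3K4me3 scored 3100 or more, both marks were wider beside a flanking peak, H3K27ac at 3041 bp against 2294.5 bp and H3K4me3 at 2828 bp against 2448 bp without one. The narrower H3K4me3 of all pairs with a flanking peak was thus not seen within H3K4me3 score classes. Within H3K27ac score classes it was, at 2708 against 2802 bp at 3100 or more and 1327 against 1660.5 bp below 3100. H3K27ac at the pair scored 3100 or more in 52.3% of pairs with a flanking peak and in 38.3% of pairs without.

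The broader acetylation was present on both sides of H3K4me3, including the side on which no flanking peak was counted for it. In 2783 pairs the flanking peaks nearest to the H3K4me3 peak lay on 1 side only. There the H3K27ac peak reached beyond the H3K4me3 peak by 296 bp at the median (interval 269 to 327 bp) on the side of the flanking peak and by 226 bp (interval 197 to 251 bp) on the other side. In pairs without a flanking peak the median reach was -9 bp (interval -13 to -4 bp), which means that the H3K27ac peak ended at about the edge of H3K4me3. Within a pair the reach was longer on the side of the flanking peak in 52.4% of cases (interval 50.5 to 54.2%), a small imbalance. With the nearest flanking peak over 2000 bp away it was longer on that side in 54.0% (interval 51.7 to 56.2%). A flanking peak cannot lie where the peak on H3K4me3 already reaches, and the part of this limit in the low count of the first 250 bp was not tested.

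Most flanking peaks stood next to the acetylated H3K4me3 site with no other H3K27ac peak between. For 3840 of them (76.4%, interval 75.2 to 77.6%) the next H3K27ac peak in the direction of the nearest H3K4me3 peak overlapped that H3K4me3 peak. For 1020 (20.3%) another H3K27ac peak without contact to it came first, and for 163 (3.25%) there was no H3K27ac between the flanking peak and the H3K4me3 peak or on it. Among the 3840, the space without a called H3K27ac peak was 2414 bp at the median (interval 2285 to 2541 bp), with quartiles of 710 and 5109 bp. It was 100 bp or less in 8.44% and 1000 bp or less in 30.6%. A minority was therefore nearly joined to the acetylation on H3K4me3, and division of 1 enriched stretch into several peaks when the list was called was not tested as a source of them.

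Flanking peaks had more close H3K27ac neighbours than remote peaks, and on the far side from H3K4me3 the difference was smaller. Another H3K27ac peak lay within 1000 bp of 45.1% of flanking peaks (interval 43.7 to 46.5%), 25.8% of remote peaks (interval 24.9 to 26.8%) and 16.4% of overlapping peaks, against 25.1% of the whole list. The selection favours this, since H3K4me3 peaks mostly carry H3K27ac. On the side away from H3K4me3 the next H3K27ac peak lay within 1000 bp of 16.2% of flanking peaks (interval 15.2 to 17.3%). For remote peaks that value was 13.9% on the lower-coordinate side (interval 13.2 to 14.7%) and 14.2% on the other (interval 13.4 to 14.9%).

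When H3K27ac peaks within 12.5 kb were stitched, flanking peaks stood in larger clusters than remote peaks. The stitched region of a flanking peak held 4 H3K27ac peaks at the median with a summed length of 9124 bp (interval 8868 to 9407 bp), against 2 peaks and 2820 bp (interval 2727 to 2918 bp) for a remote peak. Only 1.59% of flanking peaks were alone in their region, against 39.6% of remote peaks. The selection favours this outcome, since the gap limit is shorter than the stitching distance and H3K4me3 mostly carries H3K27ac. The stitched regions of 97.5% of flanking peaks held an H3K27ac peak on H3K4me3. The comparison is therefore description, and the part of the selection in it was not tested.

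Scores of flanking peaks were set beside those of the acetylation on their H3K4me3 peaks as a description, since the rule kept flanking scores below 3100. Of the 4837 flanking peaks whose nearest H3K4me3 peak carried H3K27ac, 2809 (58.1%) stood beside H3K27ac at 3100 or more there, so that the rule itself placed them below it. Beside the 2028 others, 1706 flanking peaks (84.1%, interval 82.5 to 85.7%) scored below the highest H3K27ac peak on H3K4me3 and 322 scored above it. These 322 could arise only where that H3K27ac peak was below the limit, and its median score beside them was 283.

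The number of flanking peaks per H3K4me3 peak was usually small. A single flanking peak was nearest to 2689 H3K4me3 peaks, 719 had 2, 196 had 3 and 72 had more, up to 7. Of the 987 H3K4me3 peaks with 2 or more, 345 (35.0%, interval 32.0 to 38.0%) had them on both sides.

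The H3K4me3 peak with 7 lay on chromosome 7 (87923888 to 87924918), measured 1031 bp and scored 227, while the H3K27ac peak on it scored 2321. Its flanking peaks, 3 at lower and 4 at higher coordinates, measured 4605, 1732, 1493, 2125, 520, 846 and 1708 bp in order of position, and their scores ranged from 68.5 to 2991. The H3K4me3 peak with 6 was of a different kind. It lay on chromosome 10 (59675477 to 59683974), measured 8498 bp and scored 3100, and its flanking peaks were all weak, with scores of 66.4 to 209 and widths of 852 to 1398 bp.

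The 3 other H3K4me3 peaks named by the same rule were those with the largest summed flanking width among the H3K4me3 peaks with 5 flanking peaks, of which there were 15 in all. The 1 on chromosome 6 (68876511 to 68877053) measured 543 bp and scored 81.6, and among its flanking peaks were the adjoining peaks of 6424 and 6195 bp described above. The 1 on chromosome 2 (124566047 to 124567846) scored 380, with flanking peaks of 512 to 4663 bp, and the 1 on chromosome 11 (104488901 to 104489726) scored 117, with flanking peaks of 819 to 2854 bp. In 4 of the 5 sites the H3K4me3 score was below 3100, as in 54.5% of all H3K4me3 peaks nearest to a flanking peak.

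Runs of flanking peaks, with no other H3K27ac peak between them, were short. Of the flanking peaks 2790 (55.5%) were flanked by other kinds of H3K27ac peak on both sides, 1408 stood in runs of 2 and 582 in runs of 3. The longest run held 7 peaks in 22.1 kb on chromosome 1 (9815152 to 9837257), with widths of 513 to 3730 bp and scores of 65.7 to 1135. It lay between 2 H3K4me3 peaks, since its members were divided between 2 nearest neighbours and no H3K4me3 peak lay inside. Runs of 6 lay on chromosome 4 (149752425 to 149775065) and chromosome 5 (104157892 to 104179328), again divided between 2 nearest H3K4me3 peaks each. Among the 8 runs of 5 peaks, those with the largest summed width covered 19.5 kb on chromosome 2 (124571804 to 124591273), with scores of 56.5 to 2805, and 102 kb on chromosome 3 (53669815 to 53772292), with scores of 66.0 to 1291. The run on chromosome 3 was longer than the gap limit on both of its sides together, so it includes a stretch without H3K27ac peaks.

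The share of H3K27ac peaks that were flanking varied between chromosomes. It was 19.3% on chromosome 19 (interval 16.9 to 21.9%) and 19.2% on chromosome 9 (interval 17.3 to 21.3%), the highest values, and 13.9% on the X chromosome (interval 11.5 to 16.5%), the lowest apart from the Y chromosome, where none of 3 H3K27ac peaks was flanking. Among the autosomes chromosome 15 was lowest, at 14.5% (interval 12.5 to 16.6%). The intervals of X and chromosome 15 lay below those of chromosomes 9 and 19. These chromosomes were picked as the extremes, and the intervals take peaks as independent, so a difference between chromosomes was not tested. Unplaced contigs held 10 flanking peaks.

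**Figure D5:**
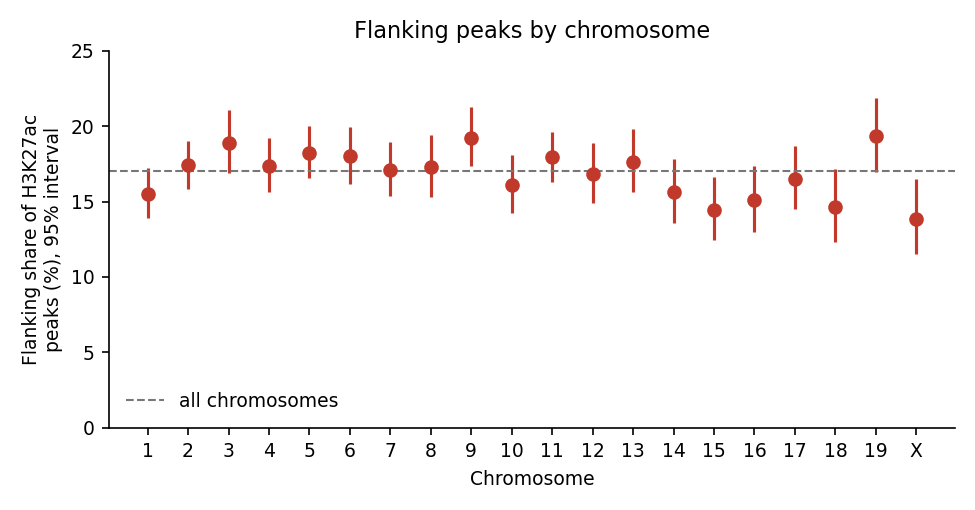
Flanking peaks as a percentage of all H3K27ac peaks on each autosome and X, with exact 95% binomial intervals; the dashed line is the 17.0% of the whole list. Values lie between 13.9% on X and 19.3% on chromosome 19.

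Stretches of 2 Mb on chromosomes 6 and 12 were dense in H3K27ac without H3K4me3, and flanking peaks were a small part of them. By the centre of the peak, on chromosome 6 (68000001 to 70000000) 21 of 136 such peaks were flanking, or 15.4%, and on chromosome 12 (115000001 to 117000000) 11 of 133 were, or 8.27%. Both shares were below the 35.7% of the whole list. The 2 stretches were not picked by the ranks used for the named peaks, so their low shares are description only.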

How the data were processed

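The deposited data were 1 peak list per mark, called with MACS on build mm9 per the submitters' processing notes; the sources used here name no MACS version, aligner or read filter, nor the part of the IgG library in calling. The score of each peak is the authors' deposited value, not normalized between libraries, and was used only within a list. The IgG library was not analysed here. The gap is the number of bases between the edges of 2 peaks, overlap means at least 1 shared bp, and ties for the nearest H3K4me3 peak went to the lower coordinate. Positions are counted from 1. Intervals at 95% are exact binomial (Clopper-Pearson) for shares and from order statistics for medians. No statistical test was made. The members and the lists of results were chosen with earlier results of these data known. Peaks were named by rank in width (10), in score (10), in number of flanking peaks (5) and in length of run (5), except on chromosome 18 and unplaced contigs. Alternatives covered score, gap, overlap, joining of peaks, chromosomes and the score limit. The selection was tested on 3000 simulated H3K27ac peaks, each near a single H3K4me3 peak, with 0 wrong calls. Peaks between 2 H3K4me3 peaks, ties and clusters were not simulated. Sequences and genes of mm9 were not used here. Python 3.11.15, NumPy 2.4.6, pandas 2.3.3, SciPy 1.17.1 and Matplotlib 3.10.9 were used.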

Additional observations from a re-analysis of the deposited data

How the results depend on the processing

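The 7 main results were recomputed under 8 other settings, and 27 of the 56 values lay inside the interval given in the report (for the number of peaks, within 1.5 times). Keeping only scores of at least 100 on both sides, there were 3163 flanking peaks (13.0% of H3K27ac peaks), with a median width of 1624 bp and gap of 4122 bp; 95.4% lay beside acetylated H3K4me3, 33.5% had an H3K27ac neighbour within 1000 bp and 11.9% lay between 2 H3K4me3 peaks. With the H3K4me3 list alone so limited the share was 16.4%, the width 1168 bp, and 97.0% lay beside acetylated H3K4me3 and 12.4% between 2 H3K4me3 peaks. A gap limit of 5000 bp gave 3101 peaks (10.5%), a width of 1089 bp, a gap of 2388 bp, 54.4% with a neighbour and 8.67% between 2. A limit of 20000 bp gave a share of 24.7%, a width of 1172 bp, a gap of 6230 bp, 95.6% beside acetylated H3K4me3, 38.8% with a neighbour and 25.5% between 2. Joining H3K27ac peaks within 100 bp gave 15.8%, 1251 bp, a gap of 4070 bp and 34.1% with a neighbour. Without the upper score limit the share was 17.8% and the width 1182 bp. Ignoring slight overlaps, or using autosomes only, moved none of the 7. Both joining and the score minimum were also applied, after the data were seen, to H3K27ac width at pairs and to shares of acetylated H3K4me3 nearest to a flanking peak. With scores of at least 100, width at pairs without a flanking peak became 2233.5 bp (2952.5 bp with one), and the shares became 24.7% at H3K4me3 scores of 100 to 200 and 14.6% at 3100 or more. With joining the last became 17.6% (26.6% at 100 to 200). The order of each comparison was kept. Unknown depth limits the number of weak peaks in either list.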

Other observations

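The 12.1 kb flanking peak on the X chromosome combined great width with a score of 138. Its nearest H3K4me3 peak (166427004 to 166432416) was likewise wide, at 5413 bp, for a score of 73.1. Among the 1055 flanking peaks scoring 100 to 200 the median width was 1050 bp and the third quartile 1249.5 bp. The last peak of either mark on X ends at 166647095, so this site lies near the distal end of the mapped peaks. It was singled out after its values were seen.

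Flanking peaks were found in 1302 of the 2189 bins of 1 Mb that held H3K27ac, with a median of 3 per such bin, and 88 bins held 10 or more. The fullest lay on chromosome 4 (132000001 to 133000000), with 21 flanking peaks among 66 H3K27ac and 38 H3K4me3 peaks. Next came chromosome 6 (120000001 to 121000000) and chromosome 8 (73000001 to 74000000) with 20 each, among 48 and 70 H3K27ac peaks. On chromosome 11 (11000001 to 12000000) 17 flanking peaks stood beside only 13 H3K4me3 peaks.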
